A study of Saccharomyces cerevisiae with 2 samples.

Results

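The genes described here encode proteins of the nuclear envelope membrane and of the lipin pathway in the budding yeast *Saccharomyces cerevisiae*. The 7 members were taken by name from a genetic interaction mapping (GIM) screen in which 5094 genes had probes: *APQ12*, *BRR6*, *HEH2*, *SRC1*, *NEM1*, *SPO7* and *PAH1*. They were picked after *APQ12* was seen to be high, so their ratios describe them and are given without a test. Of the 7, 6 had a value on both arrays, against 4196 genes in the whole series. *PAH1* had 2 probes and no value on either array.

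A GIM screen crosses a query deletion into a pool of barcoded mutants and reads from the barcodes how abundant each double mutant became. The query pool held haploid double mutants derived from the BY4742/BY4741 strains, made by combining a pool of DamP mutants with the query deletion and grown for 18 generations under G418 and nourseothricin. Its barcodes carried Cy3, and those of the reference GIM pool, made from the same strain background, carried Cy5 on the same array. Titles name *PIH1* as the deleted query gene, while descriptions and source names give *RSA1*. The titles were followed here. *RSA1* had 2 probes and no value on either array. There were 2 independent screens with 1 two-colour array each, treated as 2 replicates; separate cultures are not named, so the spread between arrays may be partly technical.

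DAmP (DamP in the labels) alleles lower a gene's mRNA by disturbing the end of its transcript. Probes carry a gene name only, so the allele behind each value is unknown. Values are log ratios read as log2, the base being unstated, and centred on each array's median. They likely run query pool over reference pool, so that a positive value means a more abundant double mutant in the query pool. The base would rescale every ratio, and the direction, which would turn every sign, rests on the low values around *PIH1* given further on. *PIH1* itself goes against this reading, at a mean of 1.01 ± 0.01 (SD, n = 2), where linkage to its own deletion would make it low. Its probes read 1.58 and 0.42 on array 1 and the first of them 1.02 on array 2. The 2 array values thus rest on different sets of probes, and their small SD does not measure how well they repeat. No per-spot brightness was analysed, and the number of arrays limits the precision.

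The nuclear envelope is a double membrane continuous with the endoplasmic reticulum (ER). Apq12, Brr6 and Brl1 are integral membrane proteins of the envelope and ER that act together in nuclear pore assembly and in keeping membrane lipid composition. Src1 (also called Heh1) and Heh2 are related inner nuclear membrane proteins of the LEM domain family; Src1 helps to hold the ribosomal DNA repeats at the envelope, and both take part in the surveillance of pore assembly. Nem1 and Spo7 form a membrane-bound phosphatase, its catalytic and regulatory subunit, that dephosphorylates and thereby activates Pah1. Pah1 is the yeast lipin, a phosphatidic acid phosphatase that makes diacylglycerol, and without it phospholipids accumulate and the nuclear membrane expands.

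*APQ12*, *BRR6*, *NEM1* and *SPO7* were at or above 1 log2 unit on both arrays, whereas the LEM domain genes *HEH2* and *SRC1* lay close to 0. At or above 1 on both arrays were thus 4 of the 6 members with a value, and 0 were at or below -1 on both. Among the 4048 genes tested, which leave out those near *PIH1* and *RSA1* and with them *NEM1*, 6.40% were at or above 1 and 2.03% at or below -1 on both arrays. The members were chosen from this same contrast, so nothing is read from their share or from the height of their median. The median of the members' mean ratios was 2.04, beside -0.0072 over the 4048 genes. By array the members' median was 1.35 and 2.73.

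**Figure D1:**
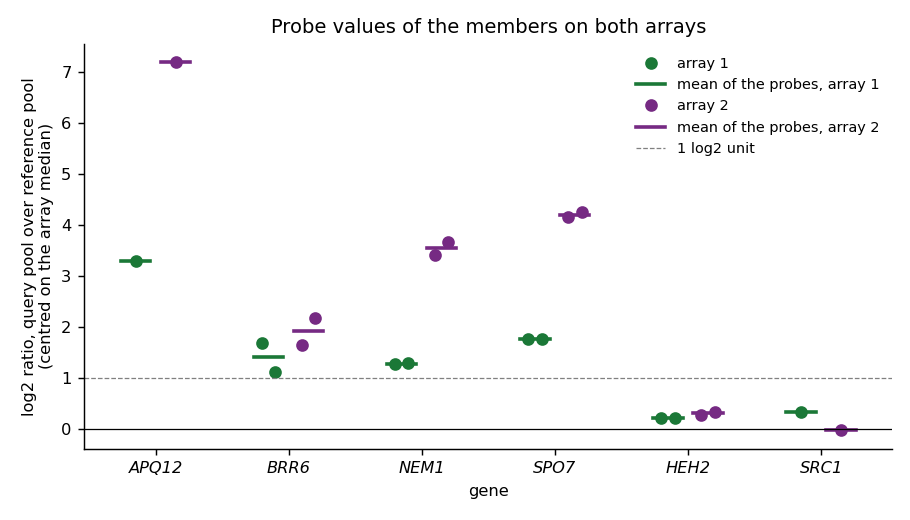
Centred log2 ratio (query over reference pool) for each probe with a value (points) of the 6 measured members on array 1 and array 2, with bars for the mean of the probes. *APQ12*, *BRR6*, *NEM1* and *SPO7* lie above the dashed line at 1 on both arrays, and *HEH2* and *SRC1* lie below it.

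*APQ12*, whose loss is known to impair pore assembly and mRNA export, had the highest ratio of the members. It stood at 3.31 on array 1 and 7.19 on array 2, a mean of 5.25 ± 2.75 (SD, n = 2), which is 38.0-fold on the log2 reading. Both values were far above 0, and the log2 value on array 2 was 2.18 times that on array 1. Only 5 of the 4048 genes had a higher mean. Its value rests on 1 of its 2 probes, since the other had no value on either array, so no second probe of the gene checks it.

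*BRR6* encodes the partner of Apq12 in the envelope membrane. Its ratio was 1.41 on array 1 and 1.92 on array 2, with a mean of 1.67 ± 0.36 (SD, n = 2), or 3.18-fold. The 2 values lay closer together than those of *APQ12*, *NEM1* or *SPO7*. The first probe read 1.70 on array 1 and 1.65 on array 2, and the second probe 1.13 and 2.19. The probes therefore changed order between the arrays, but all 4 readings were above 1. *BRR6* stood above 94.1% of the 4048 genes by its mean.

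*SPO7*, the regulatory subunit gene of the lipin phosphatase, stood at 1.77 on array 1 and 4.21 on array 2 (mean 2.99 ± 1.73, SD, n = 2, or 7.93-fold). Its 2 probes read 1.76 and 1.77 on array 1, and 4.17 and 4.25 on array 2. The catalytic subunit gene *NEM1* stood at 1.29 on array 1 and 3.55 on array 2 (mean 2.42 ± 1.59, SD, n = 2, or 5.35-fold). Its probes read 1.28 and 1.31 on array 1, and 3.42 and 3.68 on array 2. Within each gene the 2 probes thus lay close together on both arrays, and the spread came from the arrays.

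For comparison, genes with 2 measured probes had a median difference between these probes of 0.15 on array 1 (2713 genes) and 0.28 on array 2 (2536 genes). *SPO7* minus *NEM1* was 0.47 on array 1 and 0.66 on array 2, so *SPO7* was the higher on both arrays. This order holds for the ratios as centred, but *NEM1* lies near *PIH1*, among mostly negative ratios, and *SPO7* does not. Around *NEM1* the 10 closest measured genes had a median of -0.66 on array 1 and -0.50 on array 2. Those around *SPO7* had -0.03 and -0.23. Whether *SPO7* was also the higher relative to its surroundings was not tested. By mean ratio, *SPO7* was above 98.2% and *NEM1* above 97.1% of the 4048 genes. *PAH1*, encoding the substrate of this phosphatase, has no value, so of the phosphatase and its substrate only the phosphatase genes were read.

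*HEH2* stood at 0.23 on array 1 and 0.31 on array 2, a mean of 0.27 ± 0.06 (SD, n = 2). Of its 4 probes, 2 had values on each array, at 0.23 and 0.23 on array 1 and at 0.29 and 0.34 on array 2. These 4 readings were small and close to each other. *SRC1*, with 1 probe, stood at 0.34 on array 1 and -0.02 on array 2 (mean 0.16 ± 0.26, SD, n = 2). Its sign differed between the arrays, its SD was larger than its mean, and without centring the mean was -0.0028. *HEH2* minus *SRC1* was -0.11 on array 1 and 0.33 on array 2, so these 2 genes had no fixed order.

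In order of mean ratio the members ran *APQ12*, *SPO7*, *NEM1*, *BRR6*, *HEH2*, *SRC1*. *APQ12* was above *SPO7* by 1.54 on array 1 and by 2.98 on array 2, so it led on both arrays, although the ranges of the 2 genes over the arrays overlapped. *NEM1* minus *BRR6* was -0.12 on array 1 and 1.63 on array 2, so these neighbours in the order did not keep it. All readings of *HEH2* and *SRC1* lay below all readings of the other 4 genes.

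Array 2 had the wider scale over all probes. Over all probes, array 1 had a median absolute deviation of 0.35 (expressed as an SD) and array 2 of 0.63, a quotient of 1.81. The log2 value on array 2 divided by that on array 1 was 2.18 for *APQ12*, 2.75 for *NEM1*, 2.38 for *SPO7*, 1.36 for *BRR6* and 1.34 for *HEH2*. *SRC1* was the exception, with the smaller and negative value on array 2. After both arrays were brought to the same median absolute deviation, *APQ12* stood at 4.64 and 5.58 (mean 5.11 ± 0.66, SD, n = 2). *SPO7* then stood at 2.48 and 3.27, *NEM1* at 1.82 and 2.75, and *BRR6* at 1.99 and 1.49. The same 4 members were at or above 1 on both arrays then, and *BRR6* now had its larger value on array 1.

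**Figure D2:**
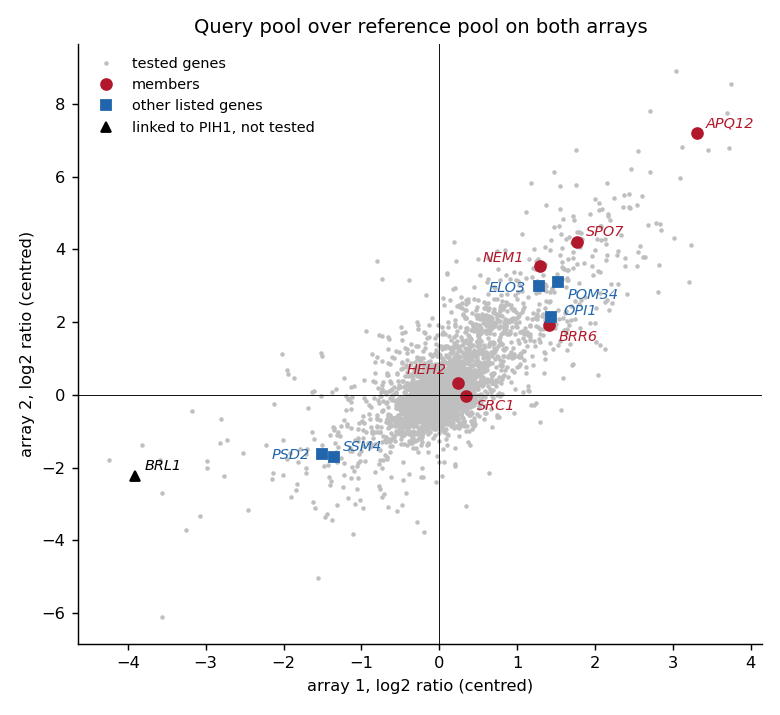
Centred log2 ratio (query over reference pool) on array 1 (x axis) and array 2 (y axis) for the 4048 tested genes (grey), the 6 measured members (red), other genes of the related lists that were beyond 1 log2 unit on both arrays (blue) and *BRL1* (black). *APQ12* lies at 3.31 and 7.19 near the upper end, and *BRL1* lies at -3.90 and -2.22.

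*BRL1* encodes a protein related to Brr6 that works with Brr6 and Apq12, and it went the other way. It stood at -3.90 on array 1 and -2.22 on array 2 (mean -3.06 ± 1.19, SD, n = 2), from 1 of its 2 probes. *BRR6* minus *BRL1* was 5.32 on array 1 and 4.14 on array 2. *BRL1* lies next to the query locus, with 1 gene between it and *PIH1*. Neighbours of a query deletion are rarely recombined with it, which lowers their ratio in this kind of screen, and *PUT2*, the gene on the other side of *BRL1*, stood at -4.19 and -2.68. A reading of *BRL1* as a partner of *BRR6* and *APQ12* and the position of *BRL1* cannot be told apart here.

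*NEM1* lies on the same chromosome as *PIH1*, with 33 protein-coding genes between them, inside the 100 kb that were kept out of the tests. The other 62 genes with a value in this region had a median of -0.61, and 53 of them had a negative mean. None of the 62 had a mean above that of *NEM1*. The highest were *HTD2* at 1.20, *PIH1* itself at 1.01 and *YHL005C* at 0.90. The 10 measured genes closest to *NEM1*, 5 on each side, had a median of -0.51 and 1 positive mean, *YHL005C*. The nearest were *QCR10*, a respiratory chain gene, at -0.38 and *STP2*, a transcription factor gene of amino acid uptake, at -0.16. The ratio of *NEM1* was thus high inside a stretch of mostly negative ratios.

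**Figure D3:**
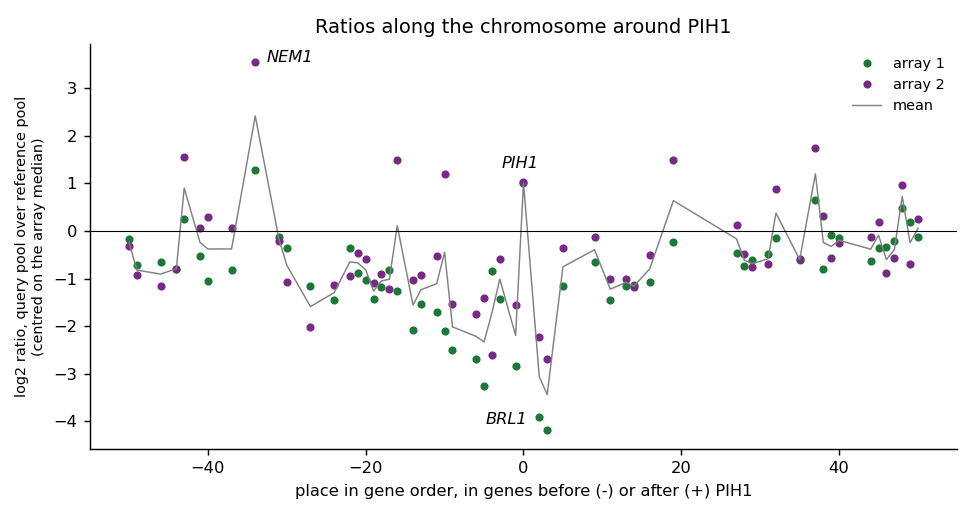
Centred log2 ratio on array 1, on array 2 and as their mean for the genes with values on both arrays (y axis), by place in the gene order from 50 genes before to 50 genes after *PIH1* (x axis, counted in protein-coding genes). *NEM1*, 34 places before *PIH1*, stands at 1.29 and 3.55 among mostly negative genes, and *BRL1* lies in the trough beside *PIH1*.

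*APQ12*, *SPO7* and *BRR6* also stood above the middle of the genes around them. The 10 measured genes around *APQ12* had a median of 0.10. The adjacent *GVP36*, which encodes a Golgi vesicle protein, stood at -1.25 ± 0.75 and the adjacent *TED1*, of protein export from the ER, at 0.04 ± 0.03 (SD, n = 2 each). The highest of these 10 was *NOT3*, a CCR4-NOT subunit gene, at 3.36. Around *SPO7* the median was -0.12, with *MDM10*, of mitochondrial membrane structure, at 0.84 ± 0.49 and *FUN14* at -0.25 ± 0.26 directly beside it.

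Around *BRR6* the 10 genes had a median of 0.09, with *PDE1*, a cyclic AMP phosphodiesterase gene, adjacent at -0.21 ± 0.30 (SD, n = 2). *RTF1*, of the Paf1 complex, was the highest of them at 5.26. *GUS1*, the nearest measured gene on the other side of *BRR6*, stood at -0.0074 ± 0.18 (SD, n = 2). *HEH2* lay directly beside the ubiquitin ligase gene *TOM1*, which stood at -4.24 on array 1 and -1.79 on array 2. The median of the 10 genes around *HEH2* was 0.06, and *PFA5*, adjacent on the other side, stood at 0.39 ± 0.64 (SD, n = 2). The 10 genes around *SRC1* had a median of 0.33, and *AMD1*, an AMP deaminase gene, was adjacent at 0.27 ± 0.04. On the other side of *SRC1* the nearest measured gene, *RCF1*, stood at 0.62 ± 0.08 (SD, n = 2). *HEH2* and *SRC1* were thus within 0.3 of the median of their surroundings, and *APQ12*, *BRR6*, *NEM1* and *SPO7* were more than 1 above it.

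The lists of related genes that follow were compiled with earlier results of these data known. limma's moderated test of both arrays against 0, with Benjamini-Hochberg adjustment over all 4048 genes, called 0 genes (0%), with 0.227 as the lowest adjusted p and 678 genes under an unadjusted p of 0.05. With both arrays brought to the same spread, it called 363 genes higher (8.97%) and 93 lower (2.30%). Counts in each list are given for both fits.

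Among other nuclear envelope membrane proteins, 14 of 19 listed genes were tested, with a median of 0.04. Of these 14, 5 were positive and 6 negative on both arrays, beside 1403 and 1373 of all 4048 genes. *POM34*, of the pore membrane ring, was the only one to reach 1 on both arrays, at 1.53 and 3.10 (mean 2.31 ± 1.11, SD, n = 2). *SSM4*, encoding the ubiquitin ligase Doa10 of the ER and inner nuclear membrane, was the only one at or below -1 on both, at -1.35 and -1.70 (mean -1.52 ± 0.25, SD, n = 2). limma called 0 of the 14 as centred, and *POM34* higher and *SSM4* lower after scaling (adjusted p = 0.0120 and 0.0252, from 0.0120 to 0.277 and from 0.0215 to 0.254 over their alternatives). *SCS2*, whose product tethers other proteins to the ER and nuclear membrane, was the second highest at 0.46 and 1.83 (mean 1.15 ± 0.97, SD, n = 2). *POM152*, also of the ring, had a mean of 0.73 ± 0.59, and *ASI1*, of the ubiquitin ligase of the inner nuclear membrane, had -0.75 ± 0.86 (SD, n = 2 each). *MPS3*, which anchors the spindle pole body and telomeres, had opposite signs on the arrays, 0.42 and -0.80.

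The regulators of lipin and phospholipid genes had 1 gene beyond the limit. *OPI1* encodes the repressor of phospholipid synthesis genes that senses phosphatidic acid, the substrate of Pah1, at the ER and nuclear membrane. It stood at 1.43 on array 1 and 2.15 on array 2 (mean 1.79 ± 0.51, SD, n = 2, or 3.47-fold). *OPI1* minus *NEM1* was 0.14 on array 1 and -1.39 on array 2. *SCS2*, whose product tethers Opi1 to the membrane, is the gene already given in the envelope list. The activator genes *INO2* (0.29 ± 0.45) and *INO4* (0.50 ± 0.05), their target *INO1* (-0.32 ± 0.64) and *ICE2*, a regulator of the Nem1-Spo7 phosphatase (-0.22 ± 0.54), lay within 1 of 0 (mean ± SD, n = 2 each). Of the 7 genes tested of 9 listed, limma called 0 as centred and 1 after scaling, *OPI1* (adjusted p = 0.0150, from 0.0150 to 0.259 over its alternatives); the median was 0.29. *PHO85* and *PHO80*, genes of a kinase and its cyclin that phosphorylate Pah1, had probes and no value. *CDC28*, another kinase gene of this list, stood at -0.13 ± 0.06 (SD, n = 2).

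Enzymes of phospholipid and triacylglycerol synthesis mostly lay near 0. Of 26 listed genes 24 were tested, with a median of -0.06 and a median SD of 0.10. *PSD2*, a phosphatidylserine decarboxylase gene of the endomembranes, was the only one beyond 1 on both arrays, at -1.50 and -1.63 (mean -1.56 ± 0.09, SD, n = 2, or 2.96-fold lower). *PSD1*, which encodes the mitochondrial phosphatidylserine decarboxylase, had a mean of the opposite sign, 0.997 ± 0.503, with 0.64 on array 1 and 1.35 on array 2. limma called 0 of the 24 as centred, and after scaling *PSD1* higher (adjusted p = 0.0457, from 0.0417 to 0.320 over its alternatives) and *PSD2* lower (adjusted p = 0.0329, from 0.0215 to 0.254). *DGK1*, the diacylglycerol kinase gene whose product acts against Pah1, stood at 0.00066 on array 1 and -0.43 on array 2. *CHO2*, of phosphatidylcholine synthesis, stood at -0.60 ± 0.03 (SD, n = 2).

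**Figure D4:**
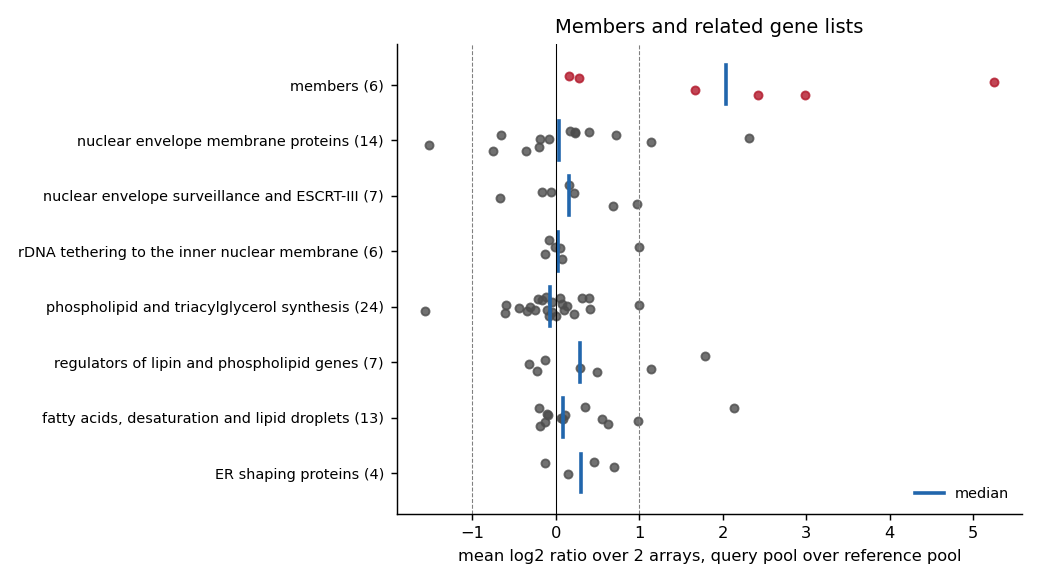
Mean centred log2 ratio over both arrays (x axis) of the measured members (red) and of the tested genes of each related list (grey, number of genes in parentheses), with blue bars for the medians and dashed lines at -1 and 1. The members' median is 2.04, and the list medians run from -0.06 to 0.30. The members were chosen from this same contrast, so nothing is read from that gap.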

How the data were processed

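The authors deposited 1 log ratio per probe and array, a value read here as log2; the sources used here do not state its base, centring, direction or normalization. Of 15744 probes, 10998 had a value on array 1 and 10382 on array 2. The platform annotation named 1 gene for 13084 probes, none for 2660 and several for 0. Of the 5100 symbols, 5034 were current in the R64 gene table, 64 were synonyms of 1 gene, and 2 matched several and were left out. That table served only for names and gene order.

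Arrays were centred on their probe medians (-0.06 and -0.27), and probes were averaged per gene. The 148 genes up to 100 kb from *PIH1* or *RSA1* did not enter the fit of the other 4048, which used limma 3.58.1 (lmFit, eBayes) in R 4.3.3. The fit was also run on simulated data in which both arrays had the same spread. That run therefore does not cover the difference in scale between the real arrays. Other steps used Python 3.11.15. Each ratio holds both pools, so the test cannot separate the reference pool's own spread from that of the query pool. Alternatives were no centring, common scale, quantile normalization, single probes, at least 2 probes per gene, linked genes kept, robust eBayes and single arrays.

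The members, lists and tests were chosen with earlier results of these data known. Named were all members, list genes beyond 1 log2 unit on both arrays (up to 5 a side), *PIH1*, *RSA1*, *BRL1*, the nearest measured gene on each side of a member, and the 5 genes closest to *APQ12*. Other genes were named after their values were seen.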

Additional observations from a re-analysis of the deposited data

How the results depend on the processing

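limma called 0 genes as centred, 456 with both arrays at the same median absolute deviation and 434 with quantile normalization; scaling takes the difference in scale between the arrays out of their spread. It called 0 without centring, with single probes, with linked genes kept, with robust eBayes and among genes with at least 2 measured probes per array. In this last setting 43 genes were at or below -1 on both arrays, in place of 82, with fewer genes tested. In all alternatives but single arrays, the mean of *APQ12* ran from 5.08 to 5.25, *BRR6* from 1.50 to 1.76, *SPO7* from 2.82 to 2.99, *NEM1* from 2.25 to 2.42 and *HEH2* from 0.11 to 0.30. *SRC1* ran from -0.0028 to 0.26, and its sign was negative without centring and on array 2 alone. *APQ12* and *SRC1* have no value where at least 2 probes are required. Without 1 array no residual degrees of freedom remain, so calls were not counted that way. No paired analysis was possible because both arrays belong to 1 group. Brightness was not analysed, so what dim spots limit was not tested.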

Other observations

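Among the tested genes, the 5 whose pair of array values lay nearest to that of *APQ12* were *CCS1*, the copper chaperone gene of superoxide dismutase, *RPS4A* and *RPL42A*, of the cytoplasmic ribosome, *LSM6*, of the Sm-like rings, and *RTF1*, of the Paf1 complex. Their distances from *APQ12* ran from 0.41 for *CCS1* to 0.86 for *RTF1*, as Euclidean distance over 2 arrays in log2 units. *CCS1* stood at 3.11 on array 1 and 6.83 on array 2, and *LSM6* at 3.72 and 6.78. None of the 5 is in the lists of envelope or lipid genes. With 2 values per gene, this likeness describes only how high the genes stood on each array.

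In the list of fatty acid synthesis, desaturation and lipid droplets, 13 of 17 genes were tested, with a median of 0.08. *ELO3*, a fatty acid elongase gene of very long chains, was the only one beyond 1 on both arrays, at 1.29 and 2.98 (mean 2.13 ± 1.20, SD, n = 2), and limma called 0 of the 13 as centred and 1 after scaling, *ELO3* (adjusted p = 0.0149, from 0.0149 to 0.302 over its alternatives). *OLE1*, the desaturase gene, stood at 0.62 ± 0.45, *UBX2*, which acts in the activation of its transcription factors, at 0.98 ± 0.52, and the seipin gene *SEI1* at 0.55 ± 0.76 (SD, n = 2 each). The 4 tested ER shaping genes had a median of 0.30, led by *SEY1*, of ER membrane fusion, at 0.70 ± 0.30, with 0 called in either fit.

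The lists of ribosomal DNA tethering and of envelope surveillance and ESCRT-III had medians near 0. In the list of ribosomal DNA tethering, 6 of 8 genes were tested (median 0.03). *LRS4*, of cohibin, stood at 0.70 on array 1 and 1.30 on array 2 and was the only gene limma called after scaling (adjusted p = 0.0418, from 0.0418 to 0.302 over its alternatives), with 0 called as centred. Of the 10 genes of envelope surveillance and ESCRT-III, the membrane-severing machinery, 7 were tested, with a median of 0.16 and 0 called in either fit. Their median SD was 0.73, beside 0.25 over all 4048 genes. *DID2*, *VPS4* and *VPS60* had opposite signs on the arrays, so their means near 0 hide a difference between the arrays. *DID4* was highest at 0.97 ± 0.80 and *VTA1* lowest at -0.67 ± 0.66 (SD, n = 2 each).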
